A study of Mus musculus with 18 samples.

Results

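The 9 genes described here are widely used as readouts of Yap and Taz activity: Ccn1, Ccn2, Ankrd1, Axl, Crim1, F3, Fjx1, Nt5e and Arhgef17. They were taken by name, each matched 1 of the 55335 gene identifiers of the counts, and all 9 had counts in every library. O9-1 cells, a neural crest (NC) line made from the heads of mouse embryos and labelled wildtype in every group, were kept in osteoblast differentiation medium and sampled at d2.5 and d5. Ctrl+vehicle cells received control siRNA (siCtrl, a scramble siRNA) and no FGF2, Ctrl+FGF2 cells received siCtrl and FGF2, and Y/T dKD+FGF2 cells received siRNA pools against both Yap and Taz (siY/T) and FGF2. Each group had 3 libraries on each day, 18 in all, and each is a poly(A) RNA library of a whole culture. No group received siY/T without FGF2, so the effect of the knockdown was measured only in the presence of FGF2, in 1 cell line.

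Yap and Taz are transcriptional co-activators at the end of the Hippo pathway. The kinases Lats1 and Lats2 phosphorylate them and keep them in the cytoplasm, and when they enter the nucleus they bind Tead factors, which carry the DNA-binding domain, and switch on target genes. The targets encode secreted matrix proteins, receptors, membrane enzymes and regulators of the cytoskeleton, and several of them respond to growth factors and to stretch as well. In NC cells Yap and Taz are known for roles in proliferation and in the choice between bone, cartilage and muscle fates.

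The siRNA targets were read first. Yap1 stood at 51.5% of its Ctrl+FGF2 level in Y/T dKD+FGF2 cells at d2.5 and at 46.0% at d5, and Wwtr1, which encodes Taz, at 60.8% and 57.5%, with no overlap between the libraries of both groups on either day. FGF2 alone raised Wwtr1 at d2.5 by 0.65 on the log2 scale (SE 0.04, edgeR adjusted p = 1.3e-16) and lowered it slightly at d5 (log2 fold change −0.09, SE 0.04, adjusted p = 0.045). FGF2 also lowered Yap1 at d2.5 (−0.23, SE 0.04, adjusted p = 3.3e-06). The Wwtr1 level of Y/T dKD+FGF2 cells at d2.5 differed from that of Ctrl+vehicle cells by −0.06 (95% interval −0.14 to 0.01). Counts on genes ranged from 10377151 to 14698525 per library (median 12330911). The labels give each day as its own batch, so day and batch cannot be told apart, and groups were compared within a day. Of 8 markers of neural crest and its mesenchyme, the defining neural crest genes Sox10 and Foxd3 had no count in any library. The other markers of the list, Tfap2a, Twist1, Msx1, Msx2, Pdgfra and Prrx1, had counts in every library. In the group means Tfap2a lay between 35.3 and 58.07 CPM (counts scaled for library size and composition). Twist1 lay between 52.97 and 93.3 CPM and the mesenchymal gene Prrx1 between 1302 and 2218 CPM. Msx2 was the lowest of these, between 0.961 and 6.602 CPM. In a bulk sample, fewer cells of a type and less RNA per cell cannot be told apart.

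Promoter sequence was available for 6 of the 9 genes (RefSeq, GRCm38.p6, from 250 bases before to 50 bases after the start). The letters CATTCC, the core that Tead factors recognize, were searched on both strands and were found in the promoters of Ccn1, Ankrd1, Axl and Crim1, 4 of 6, and in 14.7% of 32851 mouse promoters. TGANTCA, the core recognized by AP-1 factors, which often sit beside Tead factors, was found in 1 of 6, that of F3, and in 7.81% of all promoters. The CArG box recognized by serum response factor was found in 0 of 6 and in 1.63% of all promoters. The promoter of Nt5e held none of these letters. No promoter of Ccn2, Fjx1 or Arhgef17 was used here. The windows of 30 bases around the matches are shown because the 4 genes with CATTCC can be set beside the knockdown results. They are written 5′ to 3′ on the strand of the gene, with the match in capitals, and GGAATG is CATTCC read on the other strand. The F3 windows were added after the values of F3 had been seen.
Ccn1, chr3:145650071-145650100, minus strand: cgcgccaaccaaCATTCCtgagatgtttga
Ankrd1, chr19:36119950-36119979, minus strand: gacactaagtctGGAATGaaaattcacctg
Ankrd1, chr19:36120037-36120066, minus strand: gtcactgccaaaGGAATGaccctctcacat
Axl, chr7:25788949-25788978, minus strand: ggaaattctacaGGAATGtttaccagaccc
Crim1, chr17:78200157-78200186, plus strand: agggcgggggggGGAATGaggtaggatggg
F3, chr3:121723379-121723408, plus strand: ccgcggcgctgtTGAATCAcggttgagtca
F3, chr3:121723390-121723419, plus strand: ttgaatcacggtTGAGTCAcccctttcggg
Distances are counted from the RefSeq start. The match in Ccn1 began 103 bases upstream, those in Ankrd1 123 and 210, that in Axl 233 and that in Crim1 79 bases upstream. Both matches in F3 lay within 146 bases of the start, and each of its windows also holds the whole of the other match. The GENCODE span of Ankrd1 begins upstream of its RefSeq start, so both of its matches lie within that span. A match of letters is a description of the sequence and does not show that a factor binds there.

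The knockdown comparison asks which of these genes depend on Yap and Taz while FGF2 is present. At d2.5, with siY/T relative to siCtrl, Ankrd1, Crim1, Ccn1, Arhgef17 and Axl fell, Nt5e rose, and Ccn2 and F3 did not pass the test. Among all 13677 genes tested on that day, 13.6% were called lower and 10.8% higher (edgeR quasi-likelihood test, Benjamini-Hochberg adjusted p under 0.05 over all genes), against 5 and 1 of the 8 members that could be tested. Fjx1 had between 2 and 10 counts in each d2.5 library and was removed by the filter on low counts. At d5 Ankrd1, Axl, Arhgef17 and Crim1 fell, F3, Ccn2, Ccn1 and Nt5e rose, and Fjx1 did not pass. All 9 members were tested on that day, 4 being called lower and 4 higher, against 16.1% and 15.6% of all 13304 genes. The median log2 fold change was −0.10 for the 8 members tested at d2.5 and −0.10 for the 9 tested at d5. That of all genes was 0.00 on each day. The d5 median is the value of Fjx1, which was not called and had no test at d2.5. The members next to it in order at d5 were Crim1 (−0.14) and Nt5e (0.13). Of the 4 genes whose promoters hold CATTCC, all 4 were called lower at d2.5, although the call of Axl was lost in 12 of 18 alternatives. At d5, 3 of them were called lower and Ccn1 was called higher. F3 and Nt5e, whose promoters lack it, were called lower on neither day. No promoter was available for Arhgef17, which was called lower on both days, or for Ccn2 and Fjx1. The d2.5 call of Arhgef17 was lost in 8 of 18 alternatives. The share called lower among all genes with CATTCC was not computed, and a link between CATTCC and the knockdown change was not tested.

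**Figure D1:**
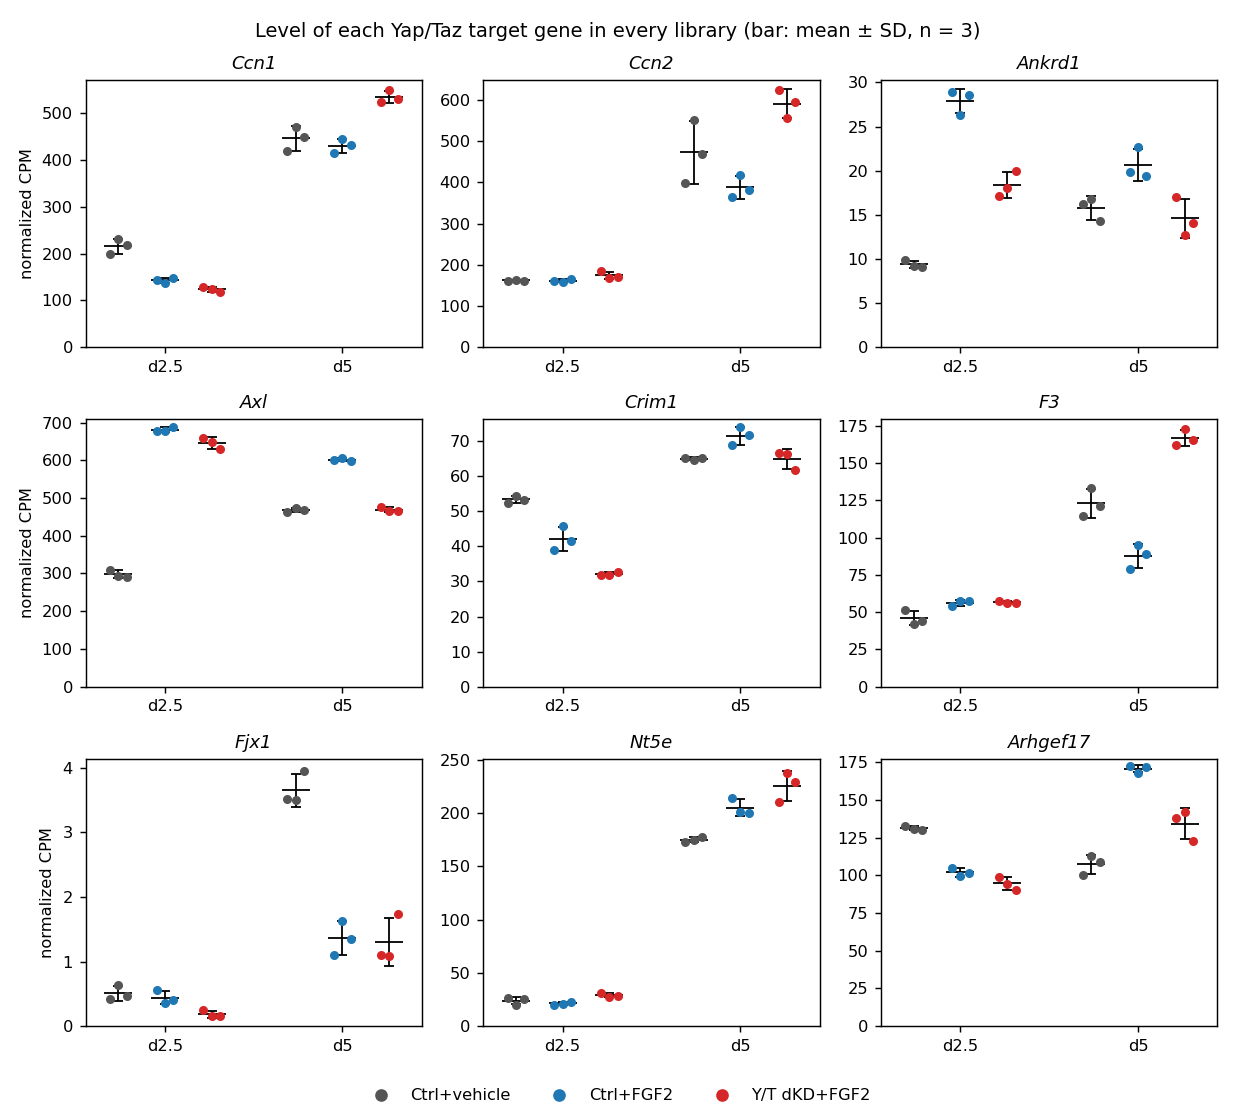
Normalized CPM (counts scaled for library size and composition) of each of the 9 genes in every library, by group and day, with points for libraries and bars for the mean ± SD of 3 libraries; each panel has its own axis from 0. Ankrd1 and Axl peaked in Ctrl+FGF2 cells on both days, while the means of Ccn1, Ccn2, F3 and Nt5e were highest in Y/T dKD+FGF2 cells at d5.

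The comparison of Ctrl+FGF2 with Ctrl+vehicle cells asks what FGF2 does to the same genes. At d2.5 FGF2 raised Ankrd1, Axl and F3 and lowered Ccn1, Arhgef17 and Crim1, with Ccn2 and Nt5e not called, that is 3 higher and 3 lower of 8, where 33.5% of all genes were called higher and 34.1% lower. At d5 FGF2 raised Arhgef17, Ankrd1, Axl, Nt5e and Crim1 and lowered Fjx1, F3 and Ccn2, with Ccn1 not called, that is 5 higher and 3 lower of 9, where 23.5% of all genes were called higher and 23.7% lower. The members' median was −0.09 at d2.5 and 0.15 at d5, beside 0.00 and 0.02 over all genes. The members tested had no common direction with FGF2 on either day. Both comparisons use the same Ctrl+FGF2 libraries, so a high or low value there enters both with opposite sign.

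**Figure D2:**
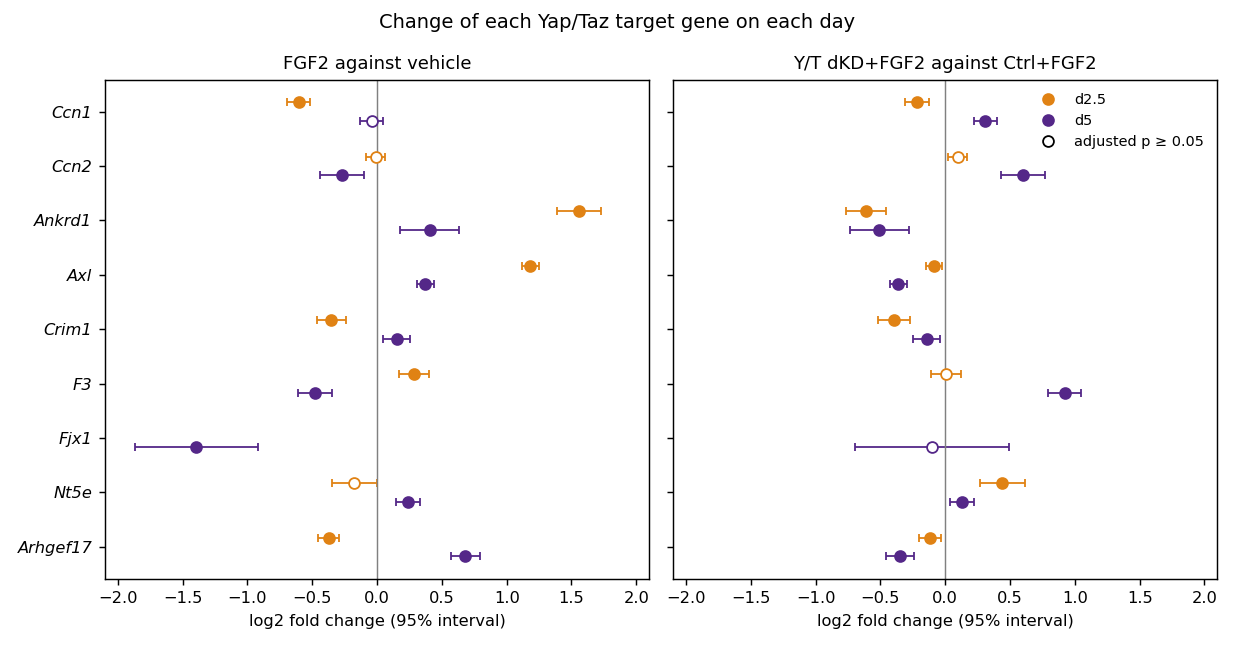
Log2 fold change with its 95% interval for FGF2 against vehicle in control cells (left) and Y/T dKD+FGF2 relative to Ctrl+FGF2 cells (right), at d2.5 and d5, with open circles for an adjusted p of at least 0.05. Ankrd1 and Axl lie to the right for FGF2 and to the left for the knockdown on both days. F3, Arhgef17, Crim1 and Nt5e change side between days for FGF2, Nt5e not being called at d2.5. Ccn1 changes side for the knockdown, and Fjx1 was tested at d5 only.

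Ankrd1 encodes a cardiac ankyrin repeat protein that works in the nucleus and at the sarcomere and responds to stretch. It sits at chr19:36111961-36120099 (GRCm38, minus strand). At d2.5 Ankrd1 was at 9.87, 9.23 and 9.12 CPM in the Ctrl+vehicle libraries, at 28.9, 26.3 and 28.5 CPM in the Ctrl+FGF2 libraries and at 17.1, 18.04 and 19.98 CPM in the Y/T dKD+FGF2 libraries. The 3 groups did not overlap, with the knockdown libraries between the other two. FGF2 raised Ankrd1 by 1.56 on the log2 scale (SE 0.08, 2.94-fold, adjusted p = 1.3e-16), and the knockdown lowered it by 0.61 (log2 fold change −0.61, SE 0.08, adjusted p = 5.6e-07). At d5 the libraries held 16.2, 16.8 and 14.3 CPM with vehicle, 19.9, 22.7 and 19.4 CPM with FGF2 and 17.01, 12.7 and 14.1 CPM with FGF2 and knockdown. The Ctrl+FGF2 libraries were again the highest, and the remaining groups overlapped. The changes at d5 were 0.40 for FGF2 (SE 0.11, adjusted p = 0.0050) and −0.51 for the knockdown (SE 0.11, adjusted p = 0.0016), and Y/T dKD+FGF2 differed from Ctrl+vehicle cells by −0.10 (95% interval −0.35 to 0.14).

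Axl encodes a receptor tyrosine kinase of the TAM family, which binds Gas6. The gene sits at chr7:25757273-25788705 (minus strand). At d2.5 Axl was at 310.2, 292 and 291 CPM with vehicle, at 678, 676 and 689 CPM with FGF2 and at 660.3, 649.5 and 629 CPM with FGF2 and knockdown. FGF2 raised Axl 2.27-fold (log2 fold change 1.18, SE 0.03, adjusted p = 1.9e-24). The knockdown lowered it on that day by only 0.08 on the log2 scale (log2 fold change −0.08, SE 0.03, adjusted p = 0.043), although no library of one group reached into the other. This call was lost in 12 of 18 alternatives. In edgeR these were RLE size factors (adjusted p = 0.078), upper-quartile factors (0.062), no filter on low counts (0.056), at least 10 counts per library (0.052) and all 18 libraries in 1 fit (0.088). It was also lost in DESeq2 (adjusted p = 0.058), and in the edgeR fits without Ctrl+FGF2 replicate 1, 2 or 3 (adjusted p = 0.097, 0.082 and 0.146), Ctrl+vehicle replicate 3 (0.057) or Y/T dKD+FGF2 replicate 1 or 3 (0.051 and 0.194). At d5 Axl was at 464, 474 and 468 CPM, at 601, 606 and 598 CPM and at 476, 466 and 467 CPM in the same order of groups. FGF2 raised it by 0.37 (SE 0.03, adjusted p = 4.5e-08) and the knockdown lowered it to 77.7% of the Ctrl+FGF2 level (log2 fold change −0.36, SE 0.03, adjusted p = 1.1e-07). The knockdown libraries overlapped the Ctrl+vehicle libraries, with a difference of 0.01 (95% interval −0.06 to 0.08).

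Ccn1 and Ccn2, formerly Cyr61 and Ctgf, encode matricellular proteins of the CCN family that bind integrins and growth factors, and both are standard readouts of Yap activity. Ccn1 sits at chr3:145646976-145649981 (minus strand). At d2.5 Ccn1 was at 199, 230.4 and 218 CPM with vehicle, at 144, 138 and 147 CPM with FGF2 and at 129, 125 and 118 CPM with FGF2 and knockdown, each group apart from the next. FGF2 lowered it (log2 fold change −0.60, SE 0.04, adjusted p = 1.6e-13), and the knockdown lowered it further (−0.22, SE 0.05, adjusted p = 8.0e-04). At d5 the values were 419, 471 and 450.4 CPM with vehicle, 415, 445 and 432 CPM with FGF2 and 525, 550.4 and 531 CPM with FGF2 and knockdown. The knockdown libraries were now the highest, at 1.24-fold of Ctrl+FGF2 (log2 fold change 0.31, SE 0.04, adjusted p = 1.8e-05), and FGF2 alone gave −0.04 (95% interval −0.13 to 0.05).

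Ccn2 sits at chr10:24595442-24598683 (plus strand), and the annotated gene Gm15270 overlaps it on the other strand. At d2.5 Ccn2 was at 161, 164 and 160.1 CPM with vehicle, at 161, 159 and 165 CPM with FGF2 and at 184, 168 and 169.7 CPM with FGF2 and knockdown. The first 2 groups overlapped, with an FGF2 change of −0.01 (95% interval −0.09 to 0.06), and all 3 knockdown libraries lay above them by a small margin. The knockdown change of 0.10 (SE 0.04) did not pass the test (edgeR adjusted p = 0.058). It did pass in 8 of 18 alternatives. In edgeR these were RLE size factors (adjusted p = 0.040), upper-quartile factors (0.032), at least 10 counts per library (0.041) and only the 2 groups (0.034). It also passed with unstranded counts, where it was 0.21 (adjusted p = 1.9e-04), and in the edgeR fits without Ctrl+vehicle replicate 1 or 2 (adjusted p = 0.035 and 0.045) or Y/T dKD+FGF2 replicate 2 (0.038). At d5 Ccn2 was at 398, 552 and 469 CPM with vehicle, at 364, 419 and 382 CPM with FGF2 and at 624, 555 and 596 CPM with FGF2 and knockdown. The knockdown libraries lay above all others and the remaining groups overlapped. The knockdown raised Ccn2 1.52-fold (log2 fold change 0.60, SE 0.08, adjusted p = 1.6e-05), and FGF2 lowered it (−0.27, SE 0.08, adjusted p = 0.010). The FGF2 change rested on Ctrl+vehicle replicate 2, the highest of its group, and without it was −0.15 (edgeR adjusted p = 0.061). In DESeq2, with all libraries, it was −0.29 (adjusted p = 0.060).

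Crim1 encodes a transmembrane protein that binds BMPs and holds them back at the cell surface. It sits at chr17:78200248-78376592 (plus strand) and overlaps the annotated genes Fez2 and Gm25069. At d2.5 Crim1 was at 52.5, 54.5 and 53.2 CPM with vehicle, at 39.1, 45.7 and 41.6 CPM with FGF2 and at 32.0, 31.8 and 32.7 CPM with FGF2 and knockdown. The groups did not overlap and the knockdown libraries were the lowest. FGF2 lowered Crim1 (log2 fold change −0.36, SE 0.05, adjusted p = 1.1e-06) and the knockdown lowered it further (−0.40, SE 0.06, adjusted p = 1.4e-05), so that it stood at 59.4% of the Ctrl+vehicle level. At d5 it was at 65.2, 64.7 and 65.3 CPM, at 68.9, 74.0 and 71.9 CPM and at 66.8, 66.3 and 61.8 CPM in the same order, and only the Ctrl+FGF2 libraries stood apart. FGF2 raised it by 0.15 (SE 0.05, adjusted p = 0.016) and the knockdown gave −0.14 (SE 0.05, adjusted p = 0.031). Both calls at d5 were small, and both were lost in DESeq2 (adjusted p = 0.128 and 0.152). In edgeR, the FGF2 call was lost without Ctrl+FGF2 replicate 2 or 3 (adjusted p = 0.074 and 0.0502) and the knockdown call without Ctrl+FGF2 replicate 2 or 3 (0.124 and 0.085) or Y/T dKD+FGF2 replicate 3 (0.148). The knockdown call was also lost with no filter on low counts (edgeR adjusted p = 0.063).

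Arhgef17 encodes a guanine nucleotide exchange factor that acts on the actin cytoskeleton. It sits at chr7:100869752-100932107 (minus strand), with the microRNA gene Mir3102 within it. At d2.5 Arhgef17 was at 133, 130.5 and 130.3 CPM with vehicle, at 105, 99.3 and 102 CPM with FGF2 and at 99.0, 94.5 and 90.3 CPM with FGF2 and knockdown. FGF2 lowered it (log2 fold change −0.37, SE 0.04, adjusted p = 7.4e-10). The knockdown change was small (−0.12, SE 0.04, adjusted p = 0.035), the highest knockdown library lying just under the lowest Ctrl+FGF2 library. Its call was lost in 8 of 18 alternatives. In edgeR it was lost with RLE size factors (adjusted p = 0.056), no filter on low counts (0.058) and all 18 libraries in 1 fit (0.119). It was also lost in DESeq2 (adjusted p = 0.113), and in the edgeR fits without Ctrl+FGF2 replicate 1 or 3 (adjusted p = 0.167 and 0.076) or Y/T dKD+FGF2 replicate 2 or 3 (0.053 and 0.201). At d5 Arhgef17 was at 100.2, 113 and 109 CPM with vehicle, at 172, 168 and 172 CPM with FGF2 and at 138, 142 and 123 CPM with FGF2 and knockdown. The groups did not overlap, the knockdown libraries lying between the other two. FGF2 now raised it 1.60-fold (log2 fold change 0.68, SE 0.05, adjusted p = 1.2e-08) and the knockdown lowered it to 78.5% of that level (−0.35, SE 0.05, adjusted p = 4.1e-05).

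F3 encodes tissue factor, the membrane receptor that starts blood coagulation. It sits at chr3:121723537-121735048 (plus strand). At d2.5 F3 was at 51.2, 42.3 and 44.1 CPM with vehicle, at 53.9, 57.4 and 57.4 CPM with FGF2 and at 57.7, 56.2 and 56.3 CPM with FGF2 and knockdown. FGF2 raised it by 0.28 (SE 0.06, adjusted p = 6.3e-05), and the last 2 groups overlapped, with a knockdown change of 0.01 (95% interval −0.11 to 0.12). At d5 F3 was at 114, 133 and 121 CPM with vehicle, at 78.8, 95.03 and 89.01 CPM with FGF2 and at 162, 173 and 166 CPM with FGF2 and knockdown, and no group overlapped another. FGF2 lowered F3 (log2 fold change −0.48, SE 0.06, adjusted p = 6.55e-06) and the knockdown raised it 1.89-fold (0.92, SE 0.06, adjusted p = 3.4e-09), above the Ctrl+vehicle level as well (0.45, SE 0.06, adjusted p = 9.2e-06). This was the largest knockdown change among the members on either day.

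Nt5e encodes CD73, a membrane enzyme that makes adenosine from AMP outside the cell and is used as a surface marker of mesenchymal stromal cells. It sits at chr9:88327197-88372092 (plus strand). At d2.5 Nt5e was at 26.6, 19.9 and 25.7 CPM with vehicle, at 20.3, 21.1 and 22.7 CPM with FGF2 and at 31.5, 27.4 and 28.7 CPM with FGF2 and knockdown. The knockdown libraries were the highest (log2 fold change against Ctrl+FGF2 0.44, SE 0.09, adjusted p = 2.8e-04), and the remaining groups overlapped. The FGF2 change of −0.18 did not pass (edgeR adjusted p = 0.072) but became −0.30 (adjusted p = 9.5e-04) without Ctrl+vehicle replicate 2, the lowest of its group. With upper-quartile factors it was −0.21 (edgeR adjusted p = 0.035). At d5 Nt5e was at 173, 175 and 178 CPM with vehicle, at 214, 201 and 199.7 CPM with FGF2 and at 210.1, 238 and 229 CPM with FGF2 and knockdown. FGF2 raised it by 0.24 (SE 0.04, adjusted p = 2.6e-04). The knockdown libraries overlapped those of Ctrl+FGF2, and the called change of 0.13 (SE 0.04, adjusted p = 0.028) was lost in the edgeR fits without Ctrl+FGF2 replicate 2 or 3 (adjusted p = 0.078 and 0.118) or Y/T dKD+FGF2 replicate 2 or 3 (0.196 and 0.092).

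Fjx1, a relative of the fly gene four-jointed that encodes a secreted regulator of growth, sits at chr2:102449366-102452499 (minus strand) and was the member with the fewest counts. At d2.5 it had 6, 10 and 6 counts with vehicle, 8, 5 and 6 counts with FGF2 and 3, 2 and 2 counts with FGF2 and knockdown, and the filter on low counts kept it out of the d2.5 fit, though not out of the fit of all 18 libraries. The knockdown libraries lay below the others by a few counts, which was not tested within d2.5. At d5 Fjx1 was at 3.52, 3.50 and 3.95 CPM with vehicle, at 1.10, 1.63 and 1.35 CPM with FGF2 and at 1.11, 1.08 and 1.73 CPM with FGF2 and knockdown, which is between 12 and 44 counts per library. The Ctrl+vehicle libraries stood apart and the others overlapped. FGF2 lowered Fjx1 (log2 fold change −1.40, SE 0.23, adjusted p = 6.0e-05), and the knockdown change was −0.10 with a wide 95% interval of −0.69 to 0.49.

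Y/T dKD+FGF2 and Ctrl+vehicle cells differ in both FGF2 and the knockdown. At d2.5 all 8 members tested differed between them, Axl (1.10), Ankrd1 (0.95), F3 (0.29), Nt5e (0.26) and Ccn2 (0.08) being higher and Ccn1 (−0.82), Crim1 (−0.75) and Arhgef17 (−0.49) lower on the log2 scale. Of all genes tested, 34.1% were called higher and 35.7% lower. The Ccn2 difference was at the limit (edgeR adjusted p = 0.045) and was lost in 11 of 18 alternatives. In edgeR it was lost with upper-quartile factors (adjusted p = 0.162), at least 10 counts per library (0.055), the replicate block (0.055), all 18 libraries in 1 fit (0.210) and only the 2 groups (0.063). It was also lost in DESeq2 (adjusted p = 0.076). In edgeR it was lost without Ctrl+FGF2 replicate 1 or 3 (adjusted p = 0.052 and 0.054), Ctrl+vehicle replicate 1 or 3 (0.074 and 0.131) or Y/T dKD+FGF2 replicate 1 (0.228). The Nt5e difference was lost without Ctrl+vehicle replicate 2 (edgeR adjusted p = 0.111). At d5 F3 (0.45), Nt5e (0.37), Ccn2 (0.33), Arhgef17 (0.33) and Ccn1 (0.27) were higher, Fjx1 (−1.498) was lower and 3 were not called, against 20.7% and 21.1% of all genes. The 3 were Ankrd1, Axl and Crim1, and Crim1 differed by 0.01 (95% interval −0.10 to 0.11).

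**Figure D3:**
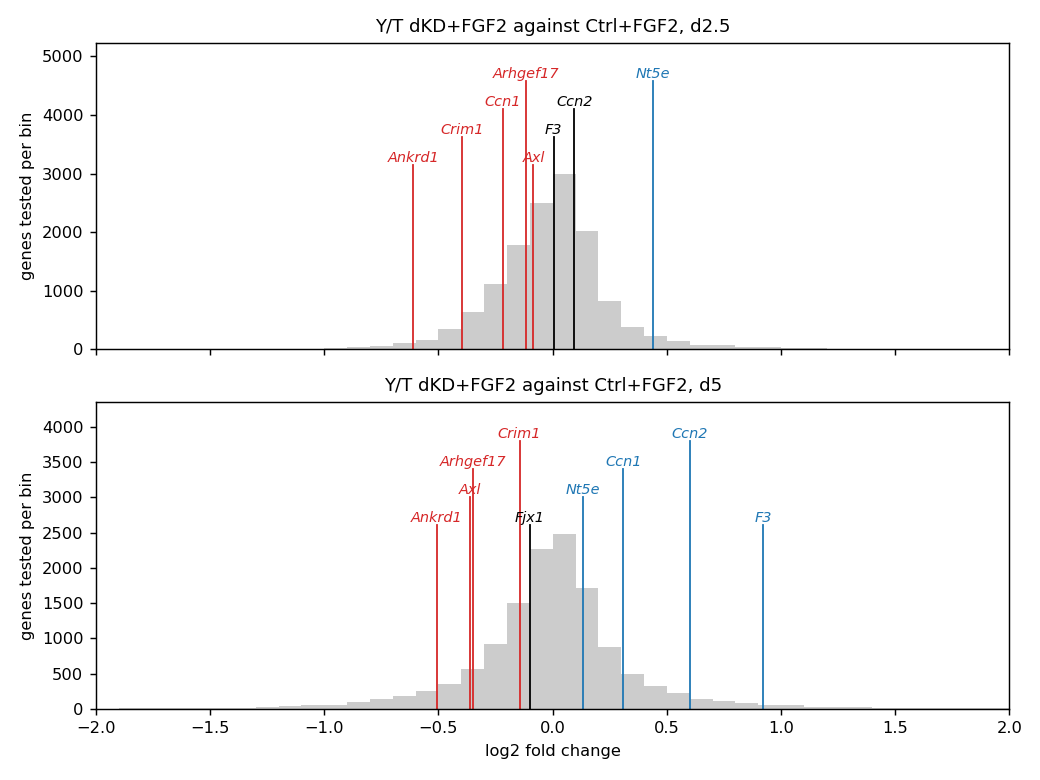
Number of genes tested in each bin of 0.1 on the log2 fold change axis for Y/T dKD+FGF2 relative to Ctrl+FGF2 cells at d2.5 and d5 (grey bars, genes beyond ±2 not drawn), with the members as lines in red where called lower, in blue where called higher and in black where not called. At d2.5 the members reach from −0.61 (Ankrd1) to 0.44 (Nt5e), and at d5 from −0.51 (Ankrd1) to 0.92 (F3).

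Several effects differed between the days, which was tested as the difference of the 2 log2 fold changes in a fit of all 18 libraries. For FGF2, the difference was called for all 9 members, 4 with a higher value at d5 and 5 with a lower one, where 31.8% and 29.1% of all 14198 genes were called. FGF2 raised F3 at d2.5 and lowered it at d5, while Crim1 and Arhgef17 fell at d2.5 and rose at d5. For the knockdown, 4 members had a higher value at d5, namely F3, Ccn1, Ccn2 and Crim1, and 3 a lower one, namely Nt5e, Axl and Arhgef17, where 11.6% and 9.35% of all genes were called. Ccn1 fell with the knockdown at d2.5 and rose at d5. The knockdown change of Ankrd1 differed between days by 0.10 (95% interval −0.17 to 0.37).

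In Ctrl+vehicle cells the level of most members itself was higher at d5, although these levels stand across the batches of the labels and were not tested. The mean at d5 was 7.28-fold that at d2.5 for Nt5e, 7.20-fold for Fjx1, 2.92-fold for Ccn2, 2.68-fold for F3, 2.07-fold for Ccn1, 1.68-fold for Ankrd1, 1.57-fold for Axl, 1.22-fold for Crim1 and 0.818-fold for Arhgef17. In both groups given FGF2 (Ctrl+FGF2, then Y/T dKD+FGF2) the direction was the opposite for 3 members, at 0.740 and 0.794-fold for Ankrd1, 0.883 and 0.726-fold for Axl and 1.67 and 1.42-fold for Arhgef17. For the other 6 members the mean was higher at d5 in these groups too. Per kb of exon sequence, Axl had the highest level of the members in Ctrl+FGF2 cells at d2.5 (135 ± 1.33 CPM per kb, SD, n = 3), followed by Ccn1 (70.9 ± 2.48), Ccn2 (56.5 ± 1.06), F3 (22.2 ± 0.793), Ankrd1 (9.68 ± 0.477), Arhgef17 (9.45 ± 0.265), Crim1 (7.03 ± 0.557), Nt5e (2.48 ± 0.140) and Fjx1 (0.141 ± 0.0339). Ankrd1 and Arhgef17 were within their spread of each other. At d5 the order of the same group began with Ccn1 (213 ± 7.67 CPM per kb), Ccn2 (136 ± 9.71) and Axl (119.5 ± 0.855) and ended with Ankrd1 (7.16 ± 0.623) and Fjx1 (0.434 ± 0.0839), and Nt5e had moved to 23.8 ± 0.917. The 3 members at the top of both orders were 2 secreted matrix proteins and a receptor.

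Markers of differentiated cells moved between the same groups. The summed level of 4 smooth muscle markers (Acta2, Tagln, Cnn1 and Myh11, none at 0 in all libraries, most of the sum being Acta2) was 167 to 231 CPM with vehicle, 22.6 to 23.7 CPM with FGF2 and 13.7 to 15.3 CPM with FGF2 and knockdown at d2.5, and 2032 to 2146, 2674 to 3069.7 and 2111 to 2272 CPM at d5. That of 6 osteoblast markers (Runx2, Sp7, Alpl, Col1a1, Ibsp and Bglap, none at 0 in all libraries) was 13247 to 13407, 2299 to 2426 and 2163 to 2299 CPM at d2.5, and 31098 to 33113, 15858 to 17613 and 21893 to 23256 CPM at d5. Most of this sum was Col1a1, and other markers moved differently. With the knockdown at d2.5 the mean of Sp7 was 36.0 CPM against 26.1 CPM in Ctrl+FGF2 cells and that of Ibsp 78.8 against 41.1 CPM. Runx2 stood at 98.7 against 92.1 CPM, Alpl at 0.105 against 0.140 CPM and Bglap at 0.0259 against 0.0935 CPM. With vehicle on that day Alpl was at 115 CPM and Bglap at 0.689 CPM. At d5 the mean of Runx2 was 179 CPM with FGF2 and 137 CPM with vehicle, and that of Sp7 44.5 and 35.8 CPM. Lower with FGF2 on that day were Alpl (54.5 and 162 CPM), Ibsp (33.1 and 114 CPM) and Bglap (0.382 and 2.69 CPM). With the knockdown at d5 the means of all 6 were above those of Ctrl+FGF2 cells. Ibsp stood at 163 against 33.1 CPM, Bglap at 1.89 against 0.382 CPM and Alpl at 93.3 against 54.5 CPM. Sp7 stood at 70.1 against 44.5 CPM, Runx2 at 199 against 179 CPM and Col1a1 at 21837 against 16646 CPM. The summed level of 4 chondrocyte markers (Sox9, Col2a1, Acan and Matn1, the last at 0.0215 CPM or less in every group mean) was 702 to 919, 117 to 129 and 112 to 120.1 CPM at d2.5, and 220.5 to 322, 323 to 432 and 392 to 402 CPM at d5. The 5 glia and neuron markers summed to at most 26.3 CPM and the 6 markers of blood, endothelium and epithelium to at most 6.46 CPM, with the endothelial gene Cdh5 at 0 in every library. The part of these cell states in the members' changes was not tested.

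The rest of the pathway was counted in 3 lists. Of 13 further genes of a published Yap/Taz target signature, all tested, the knockdown raised 3 and lowered 3 at d2.5 and raised 3 and lowered 5 at d5, with medians of −0.05 and 0.04. Among all genes, 10.8% were called higher with the knockdown and 13.6% lower at d2.5, and 15.6% and 16.1% at d5. Gadd45a, a stress-response gene that restrains the cell cycle, had the largest fall at d2.5 (log2 fold change −0.55, SE 0.09, adjusted p = 2.3e-05) and the largest rise at d5 (0.61, SE 0.08, adjusted p = 9.8e-06). It was at 27.1, 32.0 and 29.9 CPM with FGF2 and 18.6, 22.6 and 19.6 CPM with knockdown at d2.5, and at 143, 178 and 158 CPM and 249, 243 and 245 CPM at d5. Tgfb2, a TGF-beta ligand, had the largest rise at d2.5 (0.23, SE 0.09, edgeR adjusted p = 0.0499) and Nuak2, a kinase that promotes actomyosin tension, the largest fall at d5 (−0.77, SE 0.19). Of 11 other cited targets, 10 were tested on each day, of which 1 rose and 4 fell at d2.5, and 5 rose and 3 fell at d5, with medians of −0.08 and 0.06. Thbs1, a matrix glycoprotein, had the largest fall at d2.5 (−0.32, SE 0.04), Ereg, an EGF receptor ligand, the largest rise there (0.15, SE 0.05), Birc5, an inhibitor of cell death that acts in mitosis, the largest rise at d5 (0.84, SE 0.27), and Edn1, which encodes endothelin, the largest fall there (−1.26, SE 0.15). Birc5 lay between 2.85 and 8.97 CPM in the libraries of both FGF2 groups at d5.

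**Figure D4:**
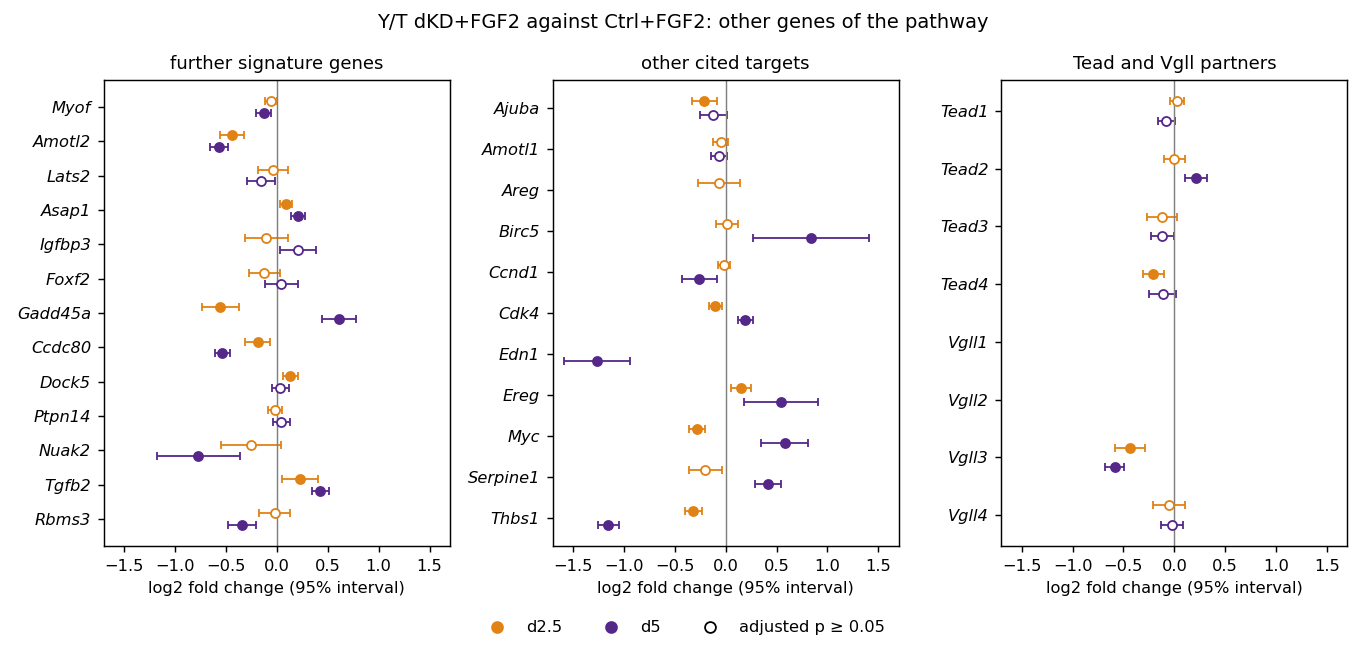
Log2 fold change with its 95% interval for Y/T dKD+FGF2 relative to Ctrl+FGF2 cells at d2.5 and d5 for 13 further signature genes, 11 other cited targets and 8 partner factors, with open circles for an adjusted p of at least 0.05 and no point where a gene was not tested. The changes run in both directions in the first 2 lists, from −1.26 (Edn1) to 0.84 (Birc5), and those of the partner factors lie between −0.58 and 0.21.

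Of the 8 partner factors, the DNA-binding Tead1 to Tead4 and the Vgll co-factors, which bind Tead in place of Yap and Taz, 6 were tested on each day. With the knockdown 2 were lower and 0 higher at d2.5 (edgeR adjusted p under 0.05), and 1 was lower and 1 higher at d5, with medians of −0.09 and −0.10. Vgll3 had the largest fall on both days (−0.43, SE 0.07, adjusted p = 4.8e-05 at d2.5 and −0.58, SE 0.04, adjusted p = 1.5e-08 at d5), from 37.5, 36.7 and 38.0 to 29.3, 26.9 and 27.5 CPM and from 455, 512 and 467 to 322, 308 and 329.7 CPM. Tead2 had the only called rise, at d5 (0.21, SE 0.05, adjusted p = 0.0036). With FGF2, 6 signature genes rose and 6 fell at d2.5, and 6 rose and 4 fell at d5. Of the cited targets FGF2 raised 7 and lowered 2 at d2.5, and raised 4 and lowered 3 at d5. With FGF2 the partners were mixed at d2.5, 1 higher and 3 lower, and all 6 tested were higher at d5. Among all genes, 33.5% were called higher with FGF2 and 34.1% lower at d2.5, and 23.5% and 23.7% at d5. With the knockdown these shares were 10.8% and 13.6% at d2.5 and 15.6% and 16.1% at d5.

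The gene whose log2 CPM followed each member most closely over the 18 libraries was found among 11731 genes, by Pearson's r. It is a description only, since the libraries of a day share a batch and levels differ between days and treatments. For Ankrd1 it was Shb (r = 0.945), for Axl Lrig1 (0.984), for Ccn1 Timp2 (0.995), for Ccn2 Olfm1 (0.993), for Crim1 Snx33 (0.979), for F3 Grem1 (0.992), for Nt5e Ccn5 (0.997) and for Arhgef17 Slc45a4 (0.973). Fjx1 was below the level needed to enter.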

How the data were processed

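Per the labels, poly(A) RNA was made into libraries with a SMARTER mRNA-Seq kit, and the submitters' processing notes name mm10, FastQC, STAR, Picard and featureCounts without roles or versions. The files deposited by the authors hold raw, unnormalized read counts for every gene, arranged as STAR writes them. The reverse-strand column was used, which held 96.0% to 96.6% of stranded counts. Entries that name no gene (27.0% to 34.4% of a library) were excluded. Symbols, positions and exon lengths came from GENCODE M21 on GRCm38 (55154 of 55335 identifiers matched), which is the mm10 assembly.

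The quasi-likelihood test of edgeR 4.0.16 (R 4.3.3), with TMM scaling and filterByExpr, was applied to the counts in a fit of the 9 libraries of each day, and the difference between days in a fit of all 18. P-values were adjusted by Benjamini-Hochberg over all genes tested, with a threshold of 0.05. All adjusted p-values are from this fit unless another is named. SE was taken as |log2 fold change| over the root of the F statistic, and 95% intervals use its degrees of freedom. Levels are TMM-normalized CPM over all 18 libraries. The code was tested on simulated data with known changes.

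The members, the lists and the rule for other genes (the largest called rise and fall of the knockdown comparison per list and day) were chosen with earlier results of these data known. Groups follow the labels. Nothing in the labels says whether replicates were separate cultures, so p-values measure the spread between libraries, which may be technical. No pair of replicates agreed within sampling noise (chi-square per gene at least 1.25). Alternatives were other scalings, filters, thresholds and samples in the fit, unstranded counts, a replicate block, leaving out each library, and DESeq2 1.42.0. The stricter thresholds were applied only to counts of calls, so the alternatives given for a single fold change leave them out.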

Additional observations from a re-analysis of the deposited data

Results flagged for a closer look

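These effects were noted because they differed between d5 and d2.5 in the test of the difference itself (edgeR, 18 libraries, adjusted p under 0.05). Each value is the log2 fold change at d5 minus that at d2.5, with day and batch not separable.

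For FGF2 against vehicle the difference was 1.03 for Arhgef17, 0.54 for Ccn1, 0.48 for Crim1 and 0.39 for Nt5e. It was −1.20 for Fjx1, −1.18 for Ankrd1, −0.83 for Axl, −0.78 for F3 and −0.29 for Ccn2. Arhgef17 and Crim1 changed from lower to higher, F3 from higher to lower, and Ankrd1 and Axl were higher on both days but less so at d5. The Fjx1 difference rests on 5 to 10 counts in each Ctrl+vehicle and Ctrl+FGF2 library at d2.5 and was lost without Ctrl+FGF2 d2.5 replicate 1 (edgeR adjusted p = 0.148), Ctrl+FGF2 d5 replicate 1 (0.069), Ctrl+vehicle d2.5 replicate 1 or 3 (0.082 and 0.061) or Ctrl+vehicle d5 replicate 3 (0.052), and in DESeq2 (0.109). The Fjx1 difference was also lost with upper-quartile factors (edgeR adjusted p = 0.052) and with no filter on low counts (0.080). That of Ccn2 was −0.16 (adjusted p = 0.074) without Ctrl+vehicle d5 replicate 2 and −0.20 (edgeR adjusted p = 0.089) with upper-quartile factors.

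For Y/T dKD+FGF2 relative to Ctrl+FGF2 the difference was 0.91 for F3, 0.52 for Ccn1, 0.50 for Ccn2 and 0.25 for Crim1. It was −0.31 for Nt5e, −0.28 for Axl and −0.23 for Arhgef17. Those of F3, Ccn1, Ccn2 and Axl were called in every alternative at the threshold of 0.05 with no minimum change. That of Crim1 was lost in DESeq2 (adjusted p = 0.061) and without Ctrl+FGF2 d2.5 replicate 2 (edgeR adjusted p = 0.108), Ctrl+FGF2 d5 replicate 1 (0.0502), Y/T dKD+FGF2 d2.5 replicate 2 (0.054) or Y/T dKD+FGF2 d5 replicate 1 or 2 (0.054 and 0.051). The Crim1 difference was also lost with no filter on low counts (edgeR adjusted p = 0.072). That of Nt5e was lost without Ctrl+FGF2 d2.5 replicate 1 or 2 (edgeR adjusted p = 0.073 and 0.052), Ctrl+FGF2 d5 replicate 1 (0.051), Y/T dKD+FGF2 d2.5 replicate 1 (0.109) or Y/T dKD+FGF2 d5 replicate 1 (0.073). That of Arhgef17 was lost without Y/T dKD+FGF2 d2.5 replicate 1 (edgeR adjusted p = 0.051) or Y/T dKD+FGF2 d5 replicate 3 (0.057).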

How the results depend on the processing

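Of 69 member fold changes 58 were called, 45 of them in every alternative, and none of the 58 changed sign. The knockdown at d2.5 lowered 5 members, and 3 with RLE size factors, no filter, an adjusted p under 0.01, DESeq2 or all 18 libraries in 1 fit. It raised 1, and 2 with RLE or upper-quartile factors, at least 10 counts per library, unstranded counts or only the 2 groups. Leaving out 1 library gave 3 to 5 lower and 1 to 2 higher, and 1 to 3 members with a lower knockdown effect at d5 than at d2.5. For the FGF2 difference between days, 3 were lower with upper-quartile factors or an adjusted p under 0.01, and for the knockdown difference 1 at that threshold, where 2057 genes were called for the knockdown at d2.5 and 1781 for its difference. Requiring a change of at least 2-fold left 0 members lower with FGF2 at d2.5, 0 in either direction for the knockdown on both days, 0 lower and 1 higher for knockdown cells relative to Ctrl+vehicle at d2.5 and 0 higher at d5, 1 lower and 0 higher for FGF2 at d5, 2 lower and 1 higher for its difference and 0 for that of the knockdown. All genes then numbered 1906, 81 and 2080 for FGF2, the knockdown and both at d2.5, 771, 424 and 642 at d5, and 2747 and 330 for the differences. Apart from the stricter thresholds, the cause was not tested. Values that changed sign were never called: against Ctrl+vehicle at d5, −0.000568 and −0.00286 for Axl and −0.00164 and −0.00448 for Crim1 (RLE, DESeq2), and with 1 library left out −0.00563 to 0.0141 for Axl, −0.0169 to 0.0412 for Crim1, −0.0228 to 0.000739 for Ccn2 with FGF2 at d2.5, −0.0236 to 0.0194 for F3 with the knockdown at d2.5, −0.326 to 0.0563 for Fjx1 with the knockdown at d5 and −0.03305 to 0.1965 for the knockdown difference of Ankrd1. Same-numbered libraries correlated between −0.11 and 0.25 after removing group means, so the numbers were not taken as pairs. With the replicate block 3226 genes were called for the knockdown at d2.5 and 4354 at d5, and 1 member call was lost, that of Ccn2 against Ctrl+vehicle at d2.5. Every d5 control library correlated best with its own number, which is a hint from the data only. Among the members, only Fjx1 was removed by the filter on low counts, at d2.5. The effect of depth on the other members was not tested.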
